A study of Sus scrofa with 12 samples.

Results

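Histones package DNA into nucleosomes, and this account covers the genes that code for them in boar testis. Members were the rows of the coding-gene table whose description begins with histone H1, H2A, H2B, H3 or H4, leaving out descriptions that name a transferase, demethylase, chaperone or binding protein. The rule took 69 of 21674 rows. HINFP, described as a histone H4 transcription factor, is a regulator and not a histone, so it is given apart and the other 68 are the histone genes below. By description, 48 are replicative genes (4 for H1, 16 for H2A, 17 for H2B, 4 for H3 and 7 for H4), 13 are testis forms (1 for H1, 9 for H2A and 3 for H2B) and 7 are replacement variants (2 for H1, 3 for H2A and 2 for H3).

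Core histones H2A, H2B, H3 and H4 form the octamer that DNA wraps around, and H1 binds the linker DNA between octamers. Replicative genes lie in clusters, are transcribed mainly in S phase, and give mRNAs that end in a stem-loop and carry no poly(A) tail. Replacement variants are made throughout the cell cycle from polyadenylated mRNAs, and testis forms replace the usual histones in spermatocytes and spermatids before protamines take over. Libraries made by depletion of ribosomal RNA, as here, keep mRNAs without a poly(A) tail.

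Testes came from 3 boars in each of 4 groups. Ha and Hb are Hezuo (HZ) boars aged 30 and 120 days, and La and Lb are Landrace (LC) boars aged 30 and 120 days. The comparisons ask how testis RNA differs between the ages within a breed and between the breeds at an age.

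Total estimated counts in the coding-gene table ran from 17165519 in Hb3 to 23758931 in Ha1, so 3 counts, taken here as the floor, are 0.126 to 0.175 CPM before TMM scaling. CPM are counts scaled to library size, given after TMM scaling over the 12 libraries, and FPKM are the authors' values scaled to gene length and library size. Histone genes held 0.411% to 0.493% of counts in Ha, 0.464% to 0.612% in Hb, 0.314% to 0.359% in La and 0.597% to 0.932% in Lb. The Lb libraries lay above those of Ha and La, and Lb1 lay within the range of Hb. Of the 68 genes, 64 reached 10 counts in at least 1 library and LOC100155267, a replicative H2B gene, had 0 counts in all 12. Counts were whole numbers in all libraries for 23 genes and fractional in at least 1 library for 45. Near-identical copies may share reads, and how such reads were divided was not tested. On the pig genome build used by the authors, 67 genes matched RefSeq coordinates, and the intervals of 19 overlap another gene. Chromosome 7 holds a cluster of 38 histone genes (34 replicative and 4 testis forms) between positions 20463528 and 21633939. A cluster of 10 replicative genes lies between 99168195 and 99219700 on chromosome 4, and 7 testis forms lie on chromosome X.

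The kinds of histone RNA differed between the ages. Summed over the 48 replicative genes, levels were 2970, 3454 and 2901 CPM in Ha, 1656, 1820 and 1683 in Hb, 2452, 2431 and 2056 in La and 2513, 2854 and 2520 in Lb. The groups did not overlap and rose from Hb through La and Lb to Ha, but in summed FPKM La and Lb overlapped. The 13 testis forms summed to 231, 300.5 and 103 CPM in Ha, 3915, 3517 and 2711 in Hb, 50.7, 44.5 and 38.5 in La and 3059, 5228 and 5526 in Lb. All 120-day-old libraries were above all 30-day-old ones, and each Ha library was above each La library. Replacement variants summed to 650.4, 703 and 747 CPM in Ha, 1007, 1120 and 859.9 in Hb, 881, 807 and 848 in La and 853, 922 and 1046 in Lb. Hb libraries were above Ha libraries in CPM and overlapped them in FPKM, and La overlapped Lb. The largest part of the sums in HZ was H3.3 (LOC100521680), at 383, 389 and 441 CPM in Ha and 741, 831 and 625 in Hb. From Ha to Hb 5 of the 7 variants had a log2 fold change below 0, with a median of -0.54. These sums carry no test. In bulk tissue a smaller number of cells of a type and less RNA in each cell cannot be told apart, and this holds for each level below.

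Testis forms held a larger share of the summed FPKM of H1, H2A and H2B at 120 days than at 30 days. H1t made up 8.34%, 8.66% and 4.93% in Ha, 51.9%, 43.0% and 45.1% in Hb, 2.19%, 2.37% and 2.10% in La and 38.1%, 44.8% and 54.7% in Lb of the H1 genes. Both 120-day-old groups were above both 30-day-old groups, and La was below Ha. The pair of H2B type 1-A genes made up 4.78%, 6.17% and 1.53% in Ha, 69.4%, 64.2% and 56.6% in Hb, 1.08%, 0.901% and 1.05% in La and 50.8%, 65.5% and 68.1% in Lb of H2B. The ages did not overlap, La was below Ha, and Hb overlapped Lb. Testis forms of H2A made up 0.219%, 0.382% and 0.190% in Ha, 34.5%, 21.3% and 28.3% in Hb, 0.113%, 0.0711% and 0.0978% in La and 15.7%, 15.0% and 17.9% in Lb of H2A. Hb was above Lb, and both were above Ha and La. H3.3 made up 26.4%, 24.8% and 36.7% in Ha, 57.2%, 58.2% and 58.1% in Hb, 52.8%, 48.2% and 51.9% in La and 41.7%, 42.9% and 49.9% in Lb of H3. Ha was the lowest group, Hb was above Ha and Lb, and La overlapped Lb. Rows for histones that the rule does not reach lower the shares of H1t, H2B type 1-A and testis H2A at 120 days, add a testis-specific H1 and raise the share of H3.3, as described with those rows.

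**Figure D1:**
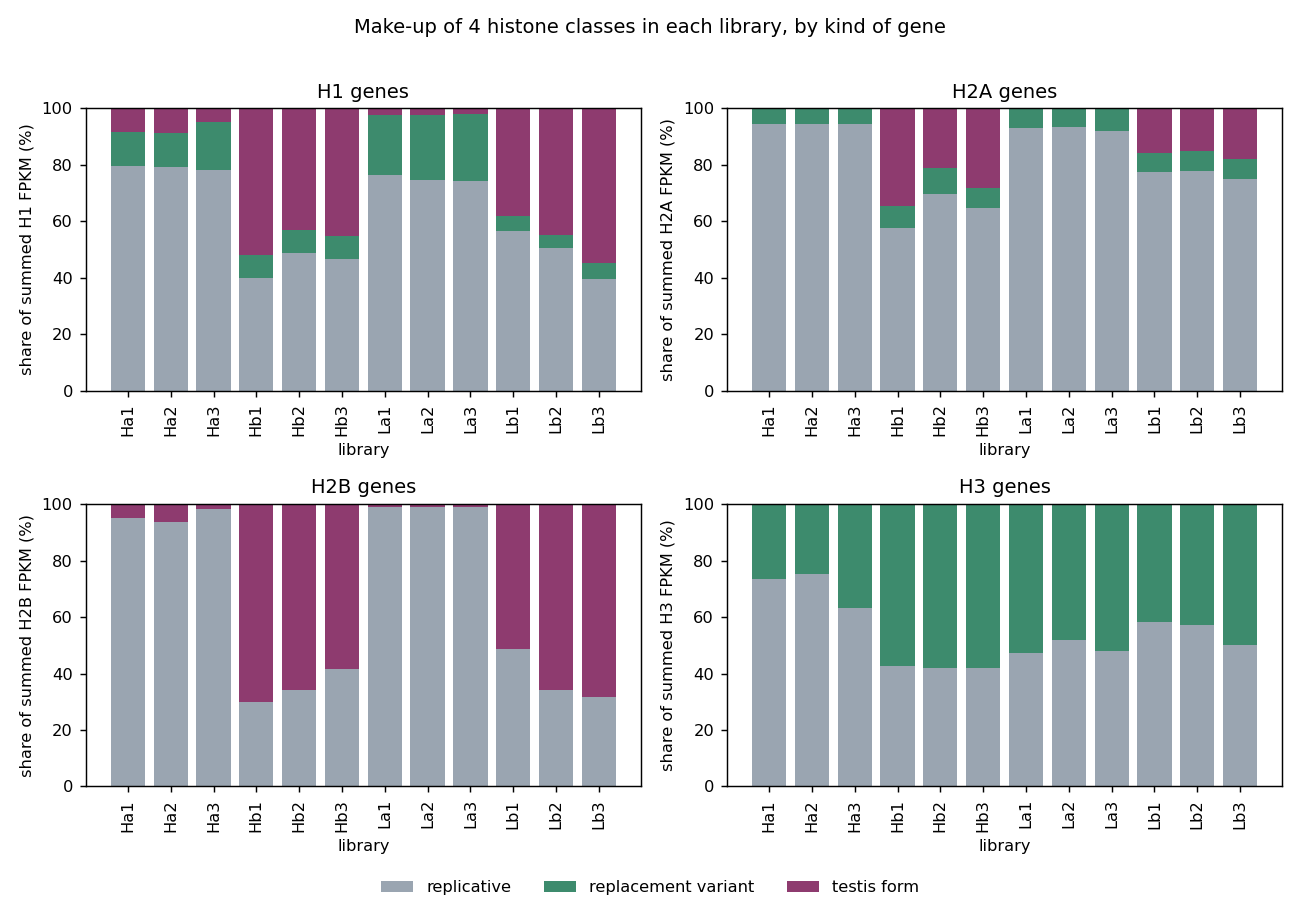
Shares of summed FPKM (percent, vertical axis) that replicative genes, replacement variants and testis forms took of H1, H2A, H2B and H3 in each of the 12 libraries (horizontal axis, 1 stacked bar per library). Both H2B type 1-A genes together go from 1.53% to 6.17% of H2B in Ha to 56.6% to 69.4% in Hb.

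From Ha to Hb, many replicative genes fell, and the testis forms above the floor in Ha rose. Of 62 histone genes tested, 10 were called higher in Hb and 19 lower, which is 16.1% and 30.6% of them. Of all genes tested, 28.2% were called higher and 23.2% lower. Differences between the shares of histone genes and of all genes were not tested, here or below. A call means that edgeR gave an adjusted p below 0.05 and that the log2 fold change exceeded 1 in size, with 3 libraries in each group. Values after ± are 1 SE of the log2 fold change, as in the figures. This SE was derived as the size of the log2 fold change divided by the square root of the edgeR F statistic. All 10 higher genes are testis forms, and 5 of these were at the floor in Ha and passed the filter only through Hb. The 19 lower genes were 17 replicative genes and the variants H1x and H2A.J, and 1 of the replicative genes, LOC106504121, was at 0 in Hb and passed the filter only through Ha. No replicative gene was called higher by edgeR (0 by DESeq2, and 1 at an unadjusted p under 0.05). The median log2 fold change of the 45 replicative genes tested was -0.82, with 41 below 0, against -0.02 over all genes. On library totals without TMM the median of all genes moved to -0.32, on log2(FPKM + 1) to -0.28 and on log2(FPKM + 0.1) to -0.47. Relative to the median of all genes, the replicative median stayed between -0.94 and -0.80 in these settings and in DESeq2. The number of histone genes lower in Hb was 29 on library totals, 33 on log2(FPKM + 1) and 39 on log2(FPKM + 0.1). Of all 16548 genes tested, 5039, 3834 and 5737 were lower in these settings, against 3844 by edgeR with TMM. Among the replicative genes given singly below, LOC100154071, LOC100154508, LOC100622387, LOC102159655, LOC110261486 and LOC110261664 were not called by edgeR but were called lower on library totals and both FPKM scales. LOC110261478, LOC110261665, LOC110261669 and LOC110261675 were so on both FPKM scales and LOC100155734 on log2(FPKM + 0.1). Calls below are edgeR's where no tool is named, and libraries named after the word without were left out 1 at a time.

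From La to Lb, the testis forms above the floor in La rose, and more replicative genes rose than fell, an excess that ended on library totals (5 and 5) and reversed on log2(FPKM + 0.1) (3 and 5). Of 63 histone genes tested, edgeR called 21 higher in Lb (33.3%) and 5 lower (7.94%), beside 27.5% and 20.1% of all genes tested. Of 45 replicative genes tested, 20.0% were higher and 6.67% lower, each less than the share of all genes. On both FPKM scales limma called 15 histone genes higher, beside 2918 and 3806 of all genes, where edgeR called 4574. The 21 higher genes were 11 testis forms, 9 replicative genes and H2AX, and 6 of the testis forms were at the floor in La. These 6 and H2A type 1-A passed the filter only through Lb. Lower in Lb were the replicative genes LOC595122 (H1.3-like), LOC106504121 (H3.1) and LOC100515302 (H2B type 3-B), with H1x and H2A.J, and LOC106504121 was at 0 in Lb and passed the filter only through La. LOC100515302 is named after its values were seen. The replicative median was 0.30, with 31 of 45 genes above 0, but it was -0.01 on both FPKM scales, where 22 were above 0 and 23 below. The median of all genes was 0.01, and -0.16, -0.16 and -0.27 on library totals, log2(FPKM + 1) and log2(FPKM + 0.1). Relative to it the replicative median was 0.15 to 0.29. The count lower in Lb was 9 on library totals and 9 on log2(FPKM + 0.1), and it was 8 without La3. Of all genes tested, 4040, 4445 and 3218 were lower in these settings, against 3352 by edgeR with TMM and all libraries.

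Between the breeds at 30 days, each histone gene called was lower in La. Of 57 tested, 14 were called lower in La (24.6%) and 0 higher, beside 4.01% and 3.6% of all genes tested. The 0 is edgeR's count, with 0 by DESeq2 and 4 at an unadjusted p under 0.05. The 14 were 10 replicative genes and the 4 testis forms H1t, H2A type 1-A and both H2B type 1-A genes, and H2A type 1-A passed the filter only through Ha. The replicative median was -0.56, with 41 of 45 genes below 0, against 0.00 over all genes, and it was negative on each scaling tried. Over the 12 replicative genes with whole counts that were tested, 1 was called lower in La, and their median was -0.44. Without La3 the count lower in La was 9, and that of all genes was 408 against 628. At this age 8 testis forms did not pass the filter.

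Between the breeds at 120 days few histone genes were called. Of 62 tested, 5 were higher in Lb (8.06%) and 1 was lower (1.61%), beside 2.65% and 1.2% of all genes tested, and these shares rest on few genes. The 5 are the replicative genes LOC110261669, LOC110261487, LOC110261482, LOC595122 and LOC100155734, and the 1 lower gene is LOC100624295, an H2A-Bbd gene. The count of 5 fell to 0 without Hb3 and to 1 without Hb1, Lb1, Lb2 or Lb3 and was 8 without Hb2. It was 1 with a replicate block, 10 on log2(FPKM + 1) and 11 on log2(FPKM + 0.1). Over all genes the 432 called higher became 110 with the block and 409 and 667 on these scales. They were 475, 645 and 90 without Hb1, Hb2 and Hb3, and 126, 69 and 97 without Lb1, Lb2 and Lb3. The count of 1 histone gene lower was 2 without Hb1 or Hb2, 3 by DESeq2 and 3 in 1 fit of all 12 libraries. Over all genes 402 were lower in each of the last 2 settings, against 196 by edgeR on the 6 libraries. The replicative median was 0.56, with 39 of 44 genes above 0, and 0.55 to 0.60 relative to all genes on each scaling, where the median of all genes reached 0.12 on log2(FPKM + 0.1).

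The change with age differed between the breeds for many replicative genes. The interaction, the log2 change from La to Lb minus that from Ha to Hb, was called for 26 of 63 histone genes (41.3%), each above 0, against 3.51% of all genes above 0 and 1.62% below. No interaction below 0 was called by edgeR (0 by DESeq2, and 1 at an unadjusted p under 0.05). On both FPKM scales limma called 30 above 0 and 1 below, that of LOC100624295. This gene was at the floor in Ha and La, so its interaction holds only the difference between Hb and Lb. No value or p-value is given for it. LOC106504121, at 0 in Hb and Lb, gives no direction here. Of the other 44 replicative genes, 22 were called and 43 had a value above 0, with a median of 1.14. The median was 1.11 to 1.20 relative to all genes on each scaling, where the median of all genes reached 0.17 on library totals and 0.18 on log2(FPKM + 0.1). Among the 22, 9 were called lower from Ha to Hb and not called in LC, 6 were called higher from La to Lb and not called in HZ, and 7 were called in neither. None was called lower in HZ and higher in LC by edgeR on all libraries. LOC110261478 was so called on both FPKM scales, LOC110261664 without Ha3 and LOC110261668 without La1. The other 4 interactions were those of H1t, H2A type 1-A and both H2B type 1-A genes, which rose in both breeds. For H2A type 1-A only 2 La libraries reached the level the filter asks for. Over the 12 replicative genes with whole counts that were tested, 9 interactions were called. Without Ha2 the count of 26 was 17, and that of all genes above 0 was 357 against 609. Of the 26, 16 were called without each of the 12 libraries in turn.

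**Figure D2:**
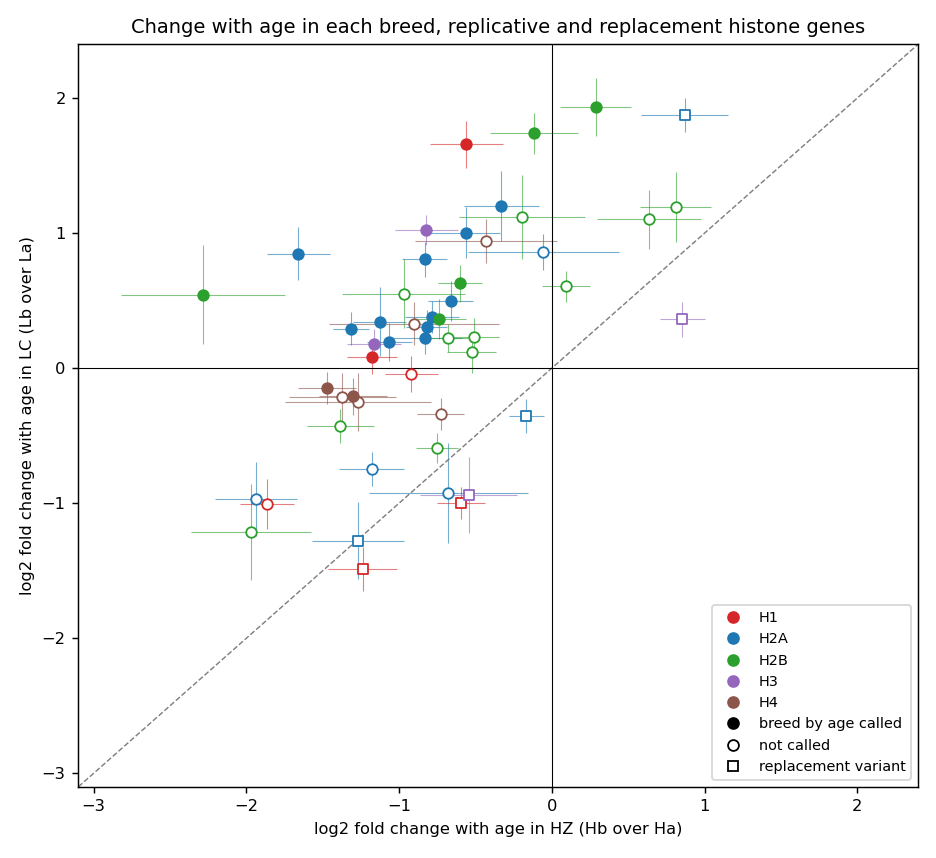
Log2 fold change with age in HZ boars (Hb over Ha, horizontal axis) against that in LC boars (Lb over La, vertical axis) for 51 replicative and replacement genes, with bars of 1 SE (3 libraries per group), LOC106504121 left out at the floor, filled symbols for a called interaction and squares for replacement variants. Of the 44 replicative genes drawn, 43 have a larger value in LC than in HZ, and the dashed line marks equal change.

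Of 4 replicative H1 genes, 2 fell from Ha to Hb (23.2% of all genes did) and 2 had a called interaction (3.51% above 0). LOC110261478 codes for H1.1 (chromosome 7, 20717123 to 20717916) and had 109, 109 and 61.1 CPM in Ha, 70.5, 65.5 and 53.0 in Hb, 30.6, 31.3 and 26.8 in La and 97.7, 110.3 and 69.2 in Lb. La libraries were below all others, and Ha overlapped Hb. Its log2 fold change was -0.56 ± 0.24 (adjusted p 0.0696) from Ha to Hb and 1.66 ± 0.17 (adjusted p 5.02e-05) from La to Lb, with an interaction of 2.21 ± 0.33 (adjusted p 0.00477). It was also lower in La than in Ha, at -1.66 ± 0.22 (adjusted p 0.00293). LOC110261661 codes for H1.5 (chromosome 7, 21621863 to 21622646) and had 106, 143 and 115 CPM in Ha, 47.2, 62.5 and 51.2 in Hb, 106, 103 and 85.9 in La and 106, 113 and 90.2 in Lb. Hb libraries were below all others, which overlapped. Its value was -1.18 ± 0.16 (adjusted p 0.000564) from Ha to Hb and 0.08 ± 0.12 (adjusted p 0.568) from La to Lb, with an interaction of 1.25 ± 0.22 (adjusted p 0.00996). LOC595122, described as H1.3-like (chromosome 7, 20881642 to 20882307), had 26.9, 30.1 and 32.5 CPM in Ha, 8.29, 9.24 and 7.06 in Hb, 42.5, 32.9 and 34.4 in La and 15.4, 22.7 and 16.1 in Lb. The groups did not overlap and ran from Hb, the lowest, through Lb and Ha to La. It fell with age, at -1.86 ± 0.18 (adjusted p 8.92e-05) in HZ and -1.01 ± 0.19 (adjusted p 0.00141) in LC, with an interaction of 0.84 ± 0.26 (adjusted p 0.0709) that was called only with limma on log2(FPKM + 0.1) (log2 fold change 1.02, adjusted p 0.02). The LC call ended with DESeq2 and without La1, Lb1 and Lb3 (log2 fold change -0.98 to -0.89, adjusted p 1.11e-05 to 0.0066). It was higher in Lb than in Hb, at 1.18 ± 0.24 (adjusted p 0.0341), a call that ended with a replicate block and without Hb1, Hb3, Lb1, Lb2 and Lb3 (log2 fold change 0.99 to 1.29, adjusted p 0.0654 to 0.115).

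Replicative H2A genes made up 11 of the 22 replicative interactions, and 15 of the 16 were tested (3.51% of all genes had one above 0). LOC102159655, H2A type 2-A-like (chromosome 4, 99197499 to 99198164), had the highest mean of them at 188 FPKM and 194, 237 and 199 CPM in Ha, 111, 115 and 131 in Hb, 153, 169 and 136 in La and 164, 205 and 190.2 in Lb. Hb was lowest, La was below Ha, and Lb overlapped both of them. Its log2 fold change was -0.82 ± 0.13 (adjusted p 0.00117) in HZ and 0.30 ± 0.13 (adjusted p 0.0576) in LC, with an interaction of 1.11 ± 0.18 (adjusted p 0.00834). LOC106510170, H2A type 2-C (chromosome 4, 99168743 to 99169270), averaged 181 FPKM and had 159, 152 and 158 CPM in Ha, 50.4, 92.5 and 64.5 in Hb, 179, 179 and 155 in La and 86.4, 109 and 106 in Lb. Both 120-day-old groups lay below both 30-day-old groups and overlapped each other. It fell in HZ, at -1.18 ± 0.21 (adjusted p 0.00194), and was at -0.75 ± 0.13 (adjusted p 0.000788) in LC, with an interaction of 0.41 ± 0.26 (adjusted p 0.369) that was not called. In LC it was called with limma on log2(FPKM + 1) and limma on log2(FPKM + 0.1) (log2 fold change -1.07 to -1.06, adjusted p 0.00011 to 0.000125). The HZ call ended without Hb1 (log2 fold change -0.99, adjusted p 0.00268). LOC110261665, H2A type 1 (chromosome 7, 20906299 to 20906810), averaged 171 FPKM and had 132, 156 and 119.5 CPM in Ha, 77.6, 97.8 and 82.5 in Hb, 123, 98.4 and 91.7 in La and 138, 170.4 and 129 in Lb. Hb was below Ha and Lb, and La was below Lb. The changes were -0.66 ± 0.15 (adjusted p 0.00529) in HZ and 0.50 ± 0.15 (adjusted p 0.0153) in LC, and the interaction was 1.14 ± 0.22 (adjusted p 0.0153).

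A further 4 H2A genes lie between 20729940 and 20864115 on chromosome 7. LOC110261483, H2A type 1 (20729940 to 20730466), had 66.6, 73.1 and 61.0 CPM in Ha, 27.4, 33.2 and 35.5 in Hb, 57.7, 53.5 and 42.1 in La and 62.8, 56.1 and 54.8 in Lb. Hb was below each other group, and La overlapped Lb. It fell in HZ, at -1.06 ± 0.15 (adjusted p 0.000525), against 0.20 ± 0.14 (adjusted p 0.238) in LC and an interaction of 1.24 ± 0.21 (adjusted p 0.00834), and the HZ call ended without Hb1 (log2 fold change -0.96, adjusted p 0.00131). LOC110261482, H2A type 1-C (20789150 to 20799337), had 108, 102 and 96.5 CPM in Ha, 38.6, 45.1 and 39.8 in Hb, 63.3, 72.5 and 64.1 in La and 73.5, 93.0 and 75.9 in Lb. The groups rose without overlap from Hb through La and Lb to Ha. Its values were -1.32 ± 0.12 (adjusted p 7.17e-05) in HZ, 0.29 ± 0.12 (adjusted p 0.0633) in LC and 1.59 ± 0.17 (adjusted p 0.00159) for the interaction. Lb was above Hb by 1.01 ± 0.16 (adjusted p 0.0192), a call that ended with DESeq2, a replicate block and 1 fit of all 12 libraries and without Hb1, Hb3, Lb1, Lb2 and Lb3 (log2 fold change 0.91 to 1.08, adjusted p 3.63e-06 to 0.0707). LOC100158121, H2A type 1 (20857026 to 20858357), had 74.6, 88.6 and 57.8 CPM in Ha, 31.9, 36.5 and 32.6 in Hb, 47.9, 35.3 and 30.9 in La and 35.8, 66.8 and 40.8 in Lb. Ha was above Hb and La, and Lb overlapped Ha, Hb and La. It fell in HZ, at -1.13 ± 0.18 (adjusted p 0.00094), a call that ended without Ha2 (log2 fold change -0.98, adjusted p 0.00406). In LC it was at 0.34 ± 0.25 (adjusted p 0.252), and the interaction of 1.46 ± 0.35 (adjusted p 0.0305) was lost without Ha1, Ha2, Hb3, La2, La3 and Lb2 (log2 fold change 1.14 to 1.49, adjusted p 0.0501 to 0.0735). LOC100155734, H2A type 1 (20863594 to 20864115), had 14.5, 16.5 and 11.5 CPM in Ha, 8.06, 11.7 and 8.97 in Hb, 11.6, 11.3 and 7.99 in La and 19.1, 22.1 and 19.9 in Lb. Lb was above all other libraries, which overlapped. It was at -0.56 ± 0.22 (adjusted p 0.0551) in HZ, and it rose in LC, at 1.0 ± 0.19 (adjusted p 0.00154), with an interaction of 1.55 ± 0.29 (adjusted p 0.0139). The LC call ended with library totals, limma on log2(FPKM + 1), limma on log2(FPKM + 0.1) and 1 fit of all 12 libraries and without La3 and Lb2 (log2 fold change 0.67 to 0.98, adjusted p 0.0013 to 0.00555). Lb was above Hb by 1.13 ± 0.22 (adjusted p 0.0312), a call that ended with a replicate block and without Hb1, Hb3, Lb1, Lb2 and Lb3 (log2 fold change 1.0 to 1.18, adjusted p 0.0586 to 0.112).

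The other 5 H2A genes given singly lie from 21226531 on in the same cluster. LOC110261668, H2A type 1-H (21226531 to 21227023), had 49.5, 65.2 and 45.7 CPM in Ha, 19.6, 13.8 and 17.2 in Hb, 16.3, 12.5 and 10.3 in La and 21.4, 25.7 and 22.4 in Lb. Ha was above all other libraries, and La was below Lb. It fell, at -1.66 ± 0.21 (adjusted p 0.000325) in HZ and was at 0.85 ± 0.20 (adjusted p 0.00454) in LC, with an interaction of 2.49 ± 0.29 (adjusted p 0.00174). The LC change was called without La1 (log2 fold change 1.03, adjusted p 0.00239). In La the gene was lower than in Ha, at -2.04 ± 0.20 (adjusted p 0.00123). LOC100157763, also H2A type 1-H (21582735 to 21583552), had 4.83, 6.03 and 5.01 CPM in Ha, 4.17, 3.90 and 4.55 in Hb, 3.52, 3.62 and 2.42 in La and 6.06, 8.0 and 7.65 in Lb. The groups did not overlap and rose from La through Hb and Ha to Lb. It was at -0.33 ± 0.24 (adjusted p 0.259) in HZ and rose by 1.20 ± 0.26 (adjusted p 0.00305) in LC, a call that ended with limma on log2(FPKM + 1) and limma on log2(FPKM + 0.1) (log2 fold change 0.73 to 0.88, adjusted p 0.00459 to 0.00482). Its interaction of 1.51 ± 0.33 (adjusted p 0.0218) was lost without Ha2 (log2 fold change 1.42, adjusted p 0.0581). LOC100154071, H2A type 1-like (21592937 to 21593433), had 28.8, 43.3 and 28.5 CPM in Ha, 23.1, 15.3 and 18.2 in Hb, 28.9, 25.5 and 28.2 in La and 29.9, 34 and 31.8 in Lb. Hb was below each other group, and Ha overlapped La and Lb. Changes were -0.83 ± 0.24 (adjusted p 0.0168) in HZ and 0.23 ± 0.12 (adjusted p 0.136) in LC, and the interaction of 1.04 ± 0.27 (adjusted p 0.0406) was lost with DESeq2 and a replicate block and without Ha2, Hb2, Hb3, La1, La2, La3, Lb1, Lb2 and Lb3 (log2 fold change 0.82 to 1.11, adjusted p 0.0117 to 0.0875). LOC100154508, H2A type 1-F-like (21606058 to 21606567), averaged 95.2 FPKM and had 84.7, 94.6 and 67.2 CPM in Ha, 46.8, 45.7 and 45.8 in Hb, 48.8, 54.1 and 43.6 in La and 83.8, 94.5 and 74.8 in Lb. Ha and Lb were above La and Hb. It was at -0.83 ± 0.15 (adjusted p 0.00186) in HZ and 0.80 ± 0.13 (adjusted p 0.000584) in LC, with an interaction of 1.62 ± 0.20 (adjusted p 0.00247). LOC100622387, H2A type 1 (21632867 to 21633939), had 49.1, 66.1 and 45.4 CPM in Ha, 28.2, 34 and 31.0 in Hb, 49.2, 48.8 and 40.3 in La and 61.7, 58.4 and 58.0 in Lb. Hb was lowest, and Ha overlapped La and Lb. Its values were -0.79 ± 0.18 (adjusted p 0.00554) in HZ and 0.38 ± 0.12 (adjusted p 0.0193) in LC. The interaction of 1.15 ± 0.21 (adjusted p 0.0126) was lost without Ha2 (log2 fold change 0.98, adjusted p 0.0246).

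Replicative H2B genes gave 5 of the interactions among 16 tested (3.51% of all genes had one above 0). LOC110261669, H2B type 1 (chromosome 7, 20897783 to 20898253), averaged 151 FPKM and had 84.4, 109.5 and 86.6 CPM in Ha, 60.8, 66.8 and 57.2 in Hb, 102, 92.3 and 79.0 in La and 133, 162 and 123 in Lb. Hb was the lowest group and Lb the highest, with Ha and La between them. It was at -0.60 ± 0.14 (adjusted p 0.00695) in HZ and 0.63 ± 0.14 (adjusted p 0.0035) in LC, with an interaction of 1.22 ± 0.21 (adjusted p 0.00928). Lb was above Hb by 1.22 ± 0.15 (adjusted p 0.0116), a call that ended without Hb3 (log2 fold change 1.17, adjusted p 0.0514). LOC100156937, also H2B type 1 (chromosome 7, 20862784 to 20863395), averaged 106 FPKM and had 85.4, 84.7 and 73.0 CPM in Ha, 83.7, 72.3 and 103 in Hb, 82.0, 80.5 and 66.4 in La and 118, 110.0 and 116 in Lb. Lb libraries were the highest, and the other groups overlapped. No comparison was called, with 0.09 ± 0.16 (adjusted p 0.626) in HZ, 0.61 ± 0.11 (adjusted p 0.00157) in LC and 0.50 ± 0.20 (adjusted p 0.149) for the interaction. LOC110261486, H2B type 1-B (chromosome 7, 20735437 to 20736010), had 41.2, 46.8 and 38.3 CPM in Ha, 20.3, 27.4 and 28.1 in Hb, 31.0, 30.7 and 23.6 in La and 33.5, 37.5 and 37.4 in Lb. Ha was above all other libraries, and Hb and La overlapped below Lb. Changes were -0.74 ± 0.17 (adjusted p 0.00704) in HZ and 0.36 ± 0.15 (adjusted p 0.0528) in LC, and the interaction of 1.08 ± 0.23 (adjusted p 0.0188) was lost without Hb1 (log2 fold change 0.98, adjusted p 0.019).

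A further 3 H2B genes stood low in La. LOC110261671, H2B type 1-H-like (chromosome 7, 21582043 to 21582522), had 32.5, 34.2 and 20.6 CPM in Ha, 36.3, 19.6 and 24.3 in Hb, 10.5, 9.60 and 9.22 in La and 29.0, 37.0 and 31.1 in Lb. La was below all other libraries, which overlapped. It was at -0.12 ± 0.29 (adjusted p 0.729) in HZ and rose in LC, at 1.74 ± 0.15 (adjusted p 1.83e-05), with an interaction of 1.85 ± 0.34 (adjusted p 0.0118). In La it was below Ha, at -1.58 ± 0.20 (adjusted p 0.00268). LOC100621915, H2B type 1-N (chromosome 7, 21606754 to 21610955), had 8.56, 12.1 and 8.31 CPM in Ha, 10.8, 10.6 and 14.0 in Hb, 2.54, 2.61 and 2.19 in La and 8.51, 10.1 and 9.09 in Lb. La was again the lowest group, and Hb was above Lb. It was at 0.29 ± 0.23 (adjusted p 0.299) in HZ, rose by 1.93 ± 0.21 (adjusted p 7.43e-05) in LC and had an interaction of 1.63 ± 0.30 (adjusted p 0.0115). In La it was below Ha, at -1.98 ± 0.22 (adjusted p 0.0018). LOC110261672, H2B type 1-K (chromosome 7, 21225807 to 21226322), had 14.6, 17.6 and 10.6 CPM in Ha, 5.62, 1.44 and 1.72 in Hb, 0.976, 1.21 and 0.715 in La and 1.76, 1.18 and 1.23 in Lb. Ha libraries were the highest, and La and Lb stayed low and overlapped. It fell, at -2.28 ± 0.54 (adjusted p 0.00692) in HZ, and Hb1 was the highest Hb library. In LC it was at 0.54 ± 0.37 (adjusted p 0.215), and La was below Ha, at -3.90 ± 0.29 (adjusted p 0.000352), a fold of 14.9. The interaction of 2.82 ± 0.68 (adjusted p 0.0315) was lost without Ha1, Ha2, Hb3, La1, La2, La3, Lb1 and Lb2 (log2 fold change 2.61 to 3.06, adjusted p 0.0505 to 0.0778).

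Among replicative H3 genes the highest mean was that of LOC110261664, H3.1 (chromosome 7, 21631961 to 21632467), which averaged 178 FPKM and had 189.9, 211 and 132 CPM in Ha, 108, 111 and 82.2 in Hb, 64.4, 76.5 and 66.9 in La and 153, 136 and 129 in Lb. La was the lowest group, and Hb was below Ha and Lb. It was at -0.82 ± 0.20 (adjusted p 0.00883) in HZ and rose by 1.02 ± 0.11 (adjusted p 7.30e-05) in LC, with an interaction of 1.83 ± 0.25 (adjusted p 0.00355). The LC call ended with library totals, limma on log2(FPKM + 1) and limma on log2(FPKM + 0.1) and without La1, La3 and Lb1 (log2 fold change 0.70 to 1.0, adjusted p 0.000195 to 0.000754). The La value was below that of Ha, at -1.36 ± 0.17 (adjusted p 0.00263). LOC102161782, described as H3 (chromosome 4, 99187225 to 99187722), had 87.8, 95.9 and 65.2 CPM in Ha, 35.3, 41.8 and 33.8 in Hb, 59.9, 55.0 and 54.3 in La and 56.8, 69.5 and 62.8 in Lb. Hb was the lowest group, and La overlapped Lb. It fell in HZ, at -1.17 ± 0.17 (adjusted p 0.000796), against 0.18 ± 0.12 (adjusted p 0.206) in LC and an interaction of 1.33 ± 0.21 (adjusted p 0.00753). LOC106504121, H3.1 (chromosome 7, 20872535 to 20875411), was scarce, with 1.11, 0.924 and 1.09 CPM in Ha, 0 in each Hb library, 0.636, 0.452 and 0.596 in La and 0 in each Lb library. Each 30-day-old library held some, and Ha was above La. It was at least 6.11-fold lower in Hb than in Ha and at least 3.88-fold lower in Lb than in La, with the 120-day-old groups set at 3 counts per library and no p-value given, as it passed the filter through the 30-day-old groups only. On log2(FPKM + 1) these calls ended, at -0.39 and -0.21.

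H4 genes code for 1 protein from several copies. LOC110261487 (chromosome 7, 20887263 to 20887709) had the highest mean of all histone genes, 311 FPKM, and 168, 252 and 239.7 CPM in Ha, 90.6, 109 and 67.7 in Hb, 235, 244 and 196 in La and 163, 209.7 and 205 in Lb. Hb was below every other library, and Ha, La and Lb overlapped. It fell in HZ, at -1.30 ± 0.22 (adjusted p 0.00155), against -0.21 ± 0.14 (adjusted p 0.203) in LC. Lb was above Hb by 1.15 ± 0.21 (adjusted p 0.0268), a call that ended with a replicate block and without Hb1, Hb3, Lb1, Lb2 and Lb3 (log2 fold change 0.99 to 1.26, adjusted p 0.0546 to 0.0968). Its interaction of 1.08 ± 0.28 (adjusted p 0.0406) was lost without Ha2, Ha3, Hb1, Hb3, La1, La2, La3, Lb2 and Lb3 (log2 fold change 0.95 to 1.18, adjusted p 0.0572 to 0.0992). LOC100621389 (chromosome 4, 99208554 to 99208961), with whole counts, averaged 119 FPKM and had 87.5, 104 and 88.9 CPM in Ha, 27.4, 30.8 and 42.9 in Hb, 68.5, 72.0 and 59.4 in La and 56.4, 61.5 and 60.6 in Lb. Hb was lowest, Ha highest, and La overlapped Lb. It fell in HZ, at -1.47 ± 0.19 (adjusted p 0.000394), against -0.15 ± 0.12 (adjusted p 0.278) in LC and an interaction of 1.31 ± 0.23 (adjusted p 0.00928). LOC110261675 (chromosome 7, 21588850 to 21589244) averaged 112 FPKM and had 99.7, 98.1 and 81.2 CPM in Ha, 97.0, 17.0 and 34.7 in Hb, 40.1, 47.4 and 38.1 in La and 42.3, 58.8 and 55.0 in Lb. Hb1 was near the Ha libraries while Hb2 and Hb3 were below them, and La was below Ha. No change with age was called, at -0.90 ± 0.55 (adjusted p 0.181) in HZ and 0.33 ± 0.16 (adjusted p 0.0915) in LC, with an interaction of 1.22 ± 0.63 (adjusted p 0.262). The HZ change was called with limma on log2(FPKM + 1) and limma on log2(FPKM + 0.1) and without Hb1 (log2 fold change -1.84 to -1.73, adjusted p 0.00248 to 0.0151), and the interaction without Hb1 (log2 fold change 2.20, adjusted p 0.00504). Against Ha, La was lower, at -1.16 ± 0.12 (adjusted p 0.00152), a call that ended with 1 fit of all 12 libraries (log2 fold change -1.15, adjusted p 0.131).

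The other 21 replicative genes are given by their counts. Their mean levels ran from 0 FPKM for LOC100155267 to 84.3 FPKM for LOC110261477 (H4), and 18 passed the filter. With age in HZ their log2 fold changes ran from -1.97 to 0.81, and 5 of the 18 were called lower, beside 23.2% of all genes: LOC100158117 and LOC110261674 (both H4), LOC100515302 (H2B type 3-B), LOC102162202 (H2B type 2-E) and LOC100621538 (H2A type 3). From La to Lb they ran from -1.22 to 1.19, with LOC100156127 (H2B type 1-M), LOC100512420 (H2B type 1-K) and LOC100738744 (H2B type 2-E) higher and LOC100515302 lower, which is 3 and 1 of 18, beside 27.5% and 20.1%. Between the breeds at 30 days the range was -1.30 to 0.66, and LOC100156932 (H2B type 1), LOC100158117 and LOC110261674 were lower in La, 3 of 18 beside 4.01%. At 120 days it was -0.52 to 1.06 and for the interaction -0.27 to 1.51, with no call by edgeR. At an unadjusted p under 0.05 there were 6 higher and 1 lower at 120 days (0 and 0 by DESeq2) and 10 interactions above 0, of which DESeq2 called 1, that of LOC100156932. These genes were named after their values were seen.

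Of the 10 replicative genes called lower in La than in Ha, 9 lay in a single block of the chromosome 7 cluster. The block of chromosome 7 from 20463528 to 20912374 holds 17 replicative genes, and that from 21219729 to 21633939 holds a further 17. These blocks were drawn after the values were seen, so the counts are a description. Over all genes 4.01% were called lower in La than in Ha, 2.65% higher in Lb than in Hb, and 3.51% had an interaction above 0. In La, 9 of 17 genes of the higher-coordinate block were lower than in Ha, with a median of -1.04, against 1 of 17 in the lower-coordinate block (median -0.33) and 0 of 9 tested on chromosome 4 (median -0.46). The 4 testis forms called lower in La all lie in the lower-coordinate block. The 0 on chromosome 4 is edgeR's, with 0 by DESeq2 and 6 at an unadjusted p under 0.05. Each of the 9 genes had fractional counts in at least 1 library. LOC100154071, LOC100154508, LOC100157763 and LOC110261661, the genes of that block with whole counts in all libraries, were not called, at -0.76 to -0.29. The part of reads shared between copies in this pattern was not tested. Summed levels of the higher-coordinate block were 799, 1022 and 729 CPM in Ha, 525, 463 and 439 in Hb, 497, 506 and 425 in La and 688, 727 and 642 in Lb. Ha was highest, Lb next, and Hb overlapped La below both, while in summed FPKM Hb was below La. The lower-coordinate block summed to 1234, 1428 and 1246 CPM in Ha, 708, 849.8 and 716 in Hb, 1173, 1130 and 950.2 in La and 1209, 1413 and 1201 in Lb. Hb was lowest, La next, and Ha overlapped Lb. In summed FPKM La overlapped Lb, and Ha was above both. On chromosome 4 the sums were 913, 980.3 and 903 CPM in Ha, 415, 503 and 522 in Hb, 768, 774 and 669 in La and 609, 706 and 668 in Lb. Ha was the highest group and Hb the lowest. From Hb to Lb, 5 of 16 genes tested in the lower-coordinate block were higher, against 0 of 17 in the other block (8 at an unadjusted p under 0.05, 0 by DESeq2) and 0 of 9 on chromosome 4 (6 and 0). Interactions were called for 9 of 17, 10 of 17 and 3 of 9 genes, in that order.

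**Figure D3:**
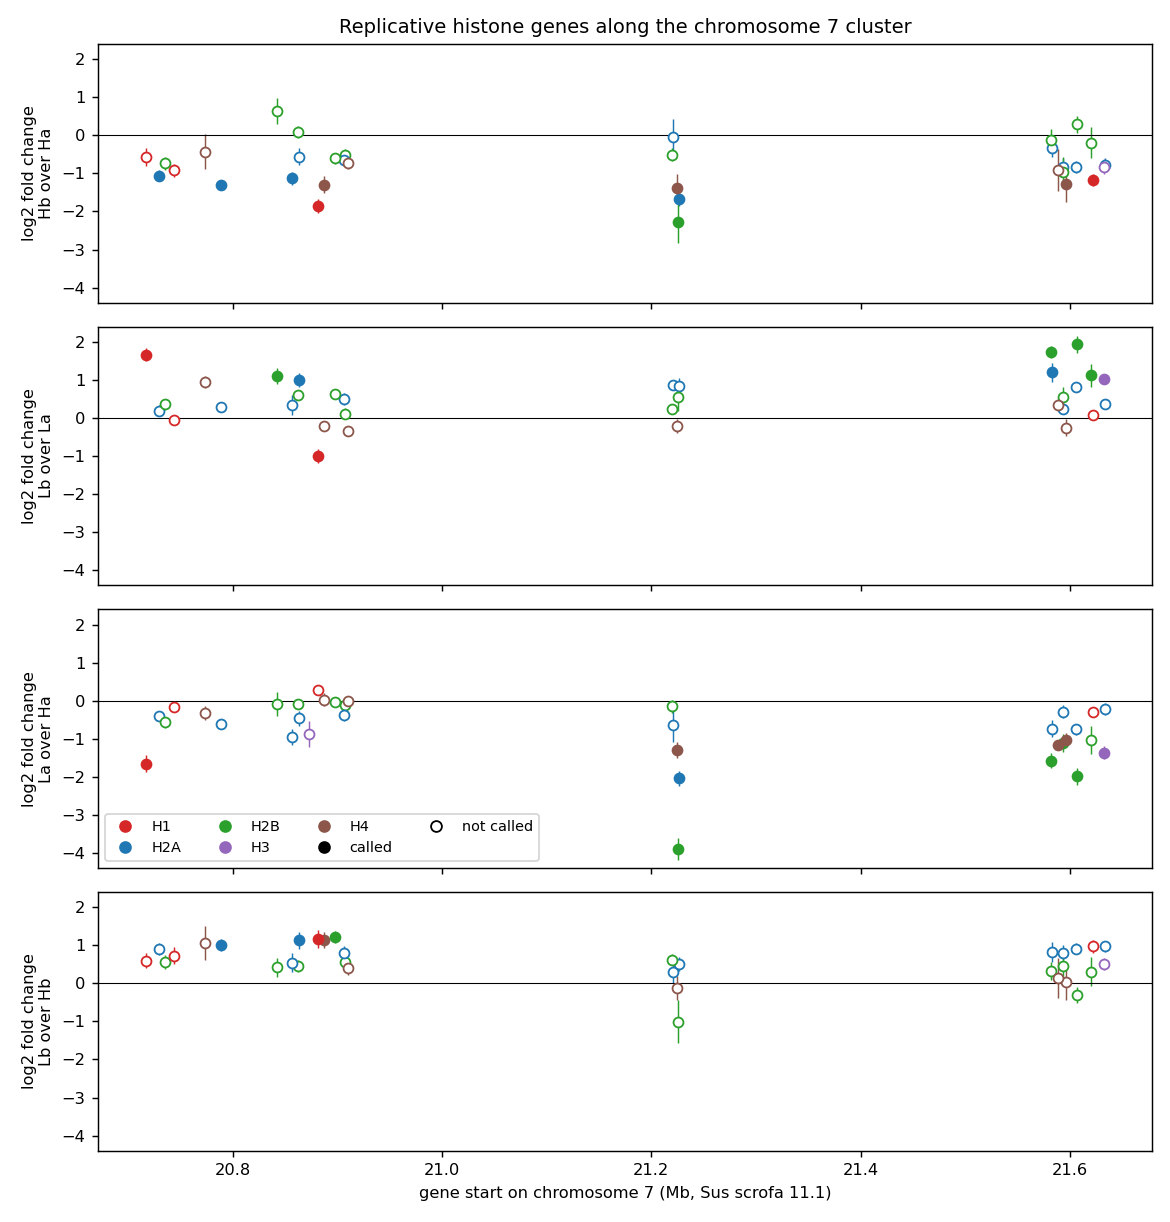
Log2 fold change (vertical axis, bars 1 SE, 3 libraries per group) of replicative genes by start position on chromosome 7 (Mb, horizontal axis) in the 4 comparisons, with filled points for called genes and genes at the floor in a comparison left out. Of the 17 genes from 21219729 on, 9 are called lower in La than in Ha.

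The 5 testis forms above the floor at 30 days (H1t, H2A type 1-A, both H2B type 1-A genes and LOC100620620) rose in both breeds. H1t, the linker histone of spermatocytes, is LOC110261479 (chromosome 7, 20774135 to 20777244) and had 134, 159 and 75.9 CPM in Ha, 841, 671 and 579.6 in Hb, 30.0, 30.9 and 24.9 in La and 780.2, 1161 and 1297 in Lb. La was lowest, Ha next, and Hb and Lb overlapped well above both. It rose 5.68-fold in HZ, at 2.51 ± 0.29 (adjusted p 0.000239), and 38.2-fold in LC, at 5.26 ± 0.23 (adjusted p 3.29e-07), with an interaction of 2.73 ± 0.37 (adjusted p 0.00363). In La it was below Ha, at -2.11 ± 0.26 (adjusted p 0.00226).

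H2B type 1-A, the testis H2B, pairs with H2A type 1-A in nucleosomes of spermatocytes and spermatids, and the 3 genes lie side by side between 20463528 and 20471314. LOC100152135, H2B type 1-A-like, averaged 299 FPKM and had 35.4, 55.5 and 12.5 CPM in Ha, 1371, 882 and 778 in Hb, 6.66, 6.53 and 6.32 in La and 801, 1795 and 1762 in Lb. La was below Ha, and both were far below Hb and Lb, which overlapped. It rose by 4.88 ± 0.57 (adjusted p 0.000241) in HZ and 7.82 ± 0.37 (adjusted p 5.32e-07) in LC. The La value was below that of Ha, at -2.41 ± 0.47 (adjusted p 0.0113), a call that ended without La3 (log2 fold change -2.37, adjusted p 0.0539). Its interaction of 2.93 ± 0.64 (adjusted p 0.0232) was lost without Ha2, Hb3, La1, La2, La3 and Lb2 (log2 fold change 2.41 to 2.98, adjusted p 0.05 to 0.0571). LOC100152878, H2B type 1-A, averaged 133 FPKM and had 56.6, 75.7 and 9.94 CPM in Ha, 1335, 1675 and 1061 in Hb, 11.6, 5.12 and 5.48 in La and 1255, 1976 and 2134 in Lb. Ha3 was near the La libraries, so Ha and La overlapped, and both ages stood apart. It rose by 4.84 ± 0.71 (adjusted p 0.000725) in HZ and 7.93 ± 0.42 (adjusted p 9.28e-07) in LC. Against Ha, La was lower, at -2.68 ± 0.68 (adjusted p 0.0284), a call that ended with limma on log2(FPKM + 1) and limma on log2(FPKM + 0.1) and without Ha1, Ha2, La1, La2 and La3 (log2 fold change -3.14 to -1.85, adjusted p 0.0503 to 0.11). Its interaction of 3.07 ± 0.80 (adjusted p 0.0406) was lost with a replicate block, limma on log2(FPKM + 1) and limma on log2(FPKM + 0.1) and without Ha1, Ha2, Hb1, Hb3, La2, La3, Lb1, Lb2 and Lb3 (log2 fold change 2.39 to 3.28, adjusted p 0.0516 to 0.102). LOC100153329, H2A type 1-A, had 3.38, 7.75 and 1.86 CPM in Ha, 146, 133 and 71.8 in Hb, 0.976, 0.301 and 0.914 in La and 105, 184 and 233 in Lb. Ha was above La, and Hb and Lb overlapped. It rose by 4.76 ± 0.56 (adjusted p 0.000244) in HZ. From La to Lb it passed the filter only through Lb, so no p-value or fold is given for LC. Between Ha and La it passed the filter only through Ha, so no p-value or fold is given there either. The gene lost its call lower in La with a replicate block and without Ha2, La1, La2 and La3. Its interaction was called but uses the same La group, so no value or p-value is given for it. That call was lost with a replicate block and without Ha1, Ha2, Hb3, La1, La2, La3, Lb2 and Lb3.

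**Figure D4:**
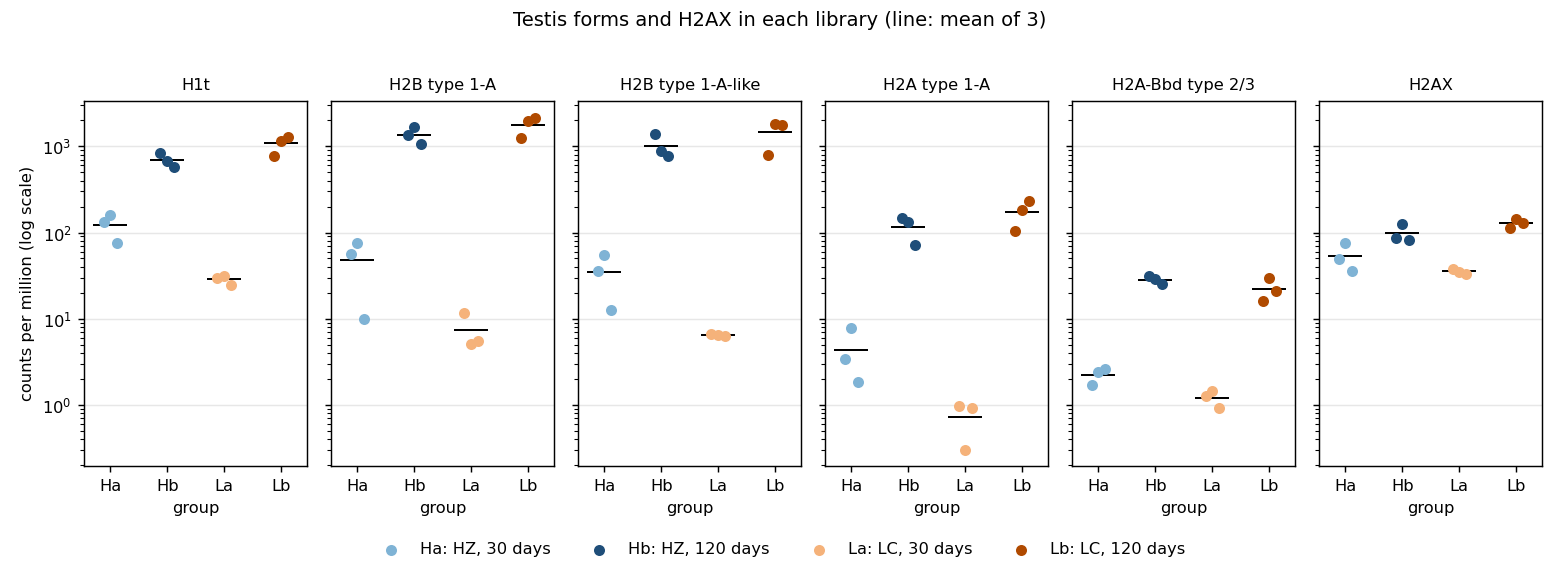
Levels (CPM, log axis) of H1t, both H2B type 1-A genes, H2A type 1-A, an H2A-Bbd gene and H2AX in each of the 12 libraries (points, by group on the horizontal axis), with a line at the mean of 3. H1t lies between 24.9 and 159 CPM at 30 days and between 580 and 1297 CPM at 120 days.

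H2A-Bbd is a short H2A whose nucleosomes hold less DNA and which is made in late germ cells. LOC100620620, type 2/3 (chromosome X, 125537401 to 125540026), passed the filter in each comparison, with 1.69, 2.41 and 2.64 CPM in Ha, 31.0, 28.8 and 25.3 in Hb, 1.27, 1.46 and 0.914 in La and 16.0, 29.5 and 20.9 in Lb. La was below Ha, and Hb overlapped Lb above both. It rose by 3.65 ± 0.23 (adjusted p 1.48e-05) in HZ and 4.20 ± 0.31 (adjusted p 6.30e-06) in LC, with an interaction of 0.53 ± 0.37 (adjusted p 0.416). MSTRG.24424, an assembled gene described as type 2/3-like and with no RefSeq position, had 0.0384, 0.0402 and 0.0777 CPM in Ha, 34.2, 24.0 and 37.1 in Hb, 0.0848, 0 and 0 in La and 29.3, 20.1 and 18.2 in Lb. The 30-day-old libraries held 0 to 2 counts and the 120-day-old ones 354 to 634, and Hb overlapped Lb. It passed the filter through the 120-day-old groups only, so no p-value or fold is given. LOC100517800 and LOC100620916, types 2/3 and 2/3-like on chromosome X, stayed at or under 0.233 CPM in each library and were not tested.

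Chromosome X also holds 3 H2A-Bbd type 1-like genes and an H2A-beta sperm-like gene, and none of them left the floor at 30 days. They passed the filter for a comparison of ages through the 120-day-old group only, so their folds with age are bounds against 3 counts per library, without a p-value. LOC100520991 (32692523 to 32693072) had 0 CPM in each Ha library, 49.0, 21.9 and 33.4 in Hb, 0 in each La library and 18.7, 16.0 and 15.4 in Lb. Each Hb library was above each Lb library. It was at least 296-fold higher in Hb than in Ha and 126-fold higher in Lb than in La, and Lb against Hb was at -1.0 ± 0.27 (adjusted p 0.0729), called with DESeq2 and 1 fit of all 12 libraries and without Hb2 (log2 fold change -1.23 to -1.02, adjusted p 0.00787 to 0.0487). LOC100624295 (33307648 to 33308398) had 0 CPM in each Ha library, 41.2, 29.6 and 39.0 in Hb, 0 in each La library and 8.51, 10.5 and 7.85 in Lb. Estimated counts of 0.5 in Ha1, Ha2 and La1 were rounded to 0, for this gene and for LOC110257841. Hb libraries were again above those of Lb. Lb was lower than Hb, at -1.98 ± 0.20 (adjusted p 0.00627), a fold of 3.94. It was at least 312-fold higher with age in HZ and at least 67.8-fold in LC. LOC110257841 (33299003 to 33299753) had 0 CPM in each Ha library, 0, 7.15 and 16.4 in Hb, 0 in each La library and 9.39, 3.25 and 5.08 in Lb. Hb1 was at 0, so Hb overlapped Lb, and Ha vs Hb did not pass the filter. It was at least 44.6-fold higher in Lb than in La. LOC100736633, H2A-beta sperm-like (33894983 to 33895366), had 0 CPM in each Ha library, 53.5, 16.6 and 43.8 in Hb, 0 in each La library and 28.0, 25.1 and 21.6 in Lb. Hb2 was the lowest 120-day-old library, and Hb overlapped Lb. Its level was at least 323-fold higher in Hb than in Ha and 188-fold higher in Lb than in La. LOC100519930, the subacrosomal H2B (chromosome 16, 49000352 to 49001341), named for its place under the acrosome of spermatids, had 0.0384, 0 and 0.0388 CPM in Ha, 13.2, 27.7 and 26 in Hb, 0, 0.0502 and 0 in La and 8.88, 7.67 and 10.6 in Lb. Hb was above Lb, and the 30-day-old libraries were at the floor. They held 0 to 1 counts, against 228 to 597 in Hb and 163 to 207 in Lb, and Lb against Hb was at -1.26 ± 0.32 (adjusted p 0.0621), called with DESeq2 and 1 fit of all 12 libraries and without Hb1 (log2 fold change -1.54 to -1.28, adjusted p 0.00293 to 0.0245).

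Among replacement variants H1x and H2A.J fell in both breeds, and H2AX rose in LC boars. Of 7 tested, 2 were thus lower in each breed (28.6%), beside 23.2% of all genes in HZ and 20.1% in LC, and 1 was higher in LC (14.3%), beside 27.5%. The number lower depends on scaling. It was 3 on log2(FPKM + 1) and 4 on log2(FPKM + 0.1) in HZ, and 4, 3 and 4 on library totals, log2(FPKM + 1) and log2(FPKM + 0.1) in LC. H1.0, a linker histone of cells that have left the cycle, is LOC100510904 (chromosome 5, 10038944 to 10041242) and had 70.4, 76.8 and 99.9 CPM in Ha, 54.2, 57.4 and 52.0 in Hb, 101, 113 and 101 in La and 53.0, 46.5 and 56.7 in Lb. La was above Ha, and both were above Hb and Lb, which overlapped. Its log2 fold change was -0.60 ± 0.16 (adjusted p 0.0117) in HZ and -1.0 ± 0.12 (adjusted p 0.000116) in LC, neither past the threshold on fold with edgeR. The HZ change was called with limma on log2(FPKM + 1) and limma on log2(FPKM + 0.1) (log2 fold change -1.07 to -1.02, adjusted p 0.000675 to 0.000679), and the LC change with library totals, a replicate block, limma on log2(FPKM + 1), limma on log2(FPKM + 0.1) and 1 fit of all 12 libraries and without La1, La3, Lb1 and Lb3 (log2 fold change -1.31 to -1.0, adjusted p 2.89e-05 to 0.00093). H1x is LOC100516295 (chromosome 13, 71760464 to 71762035) and had 48.9, 58.8 and 64.7 CPM in Ha, 30.1, 25.3 and 17.5 in Hb, 78.7, 73.8 and 72.2 in La and 20.5, 28.6 and 30.0 in Lb. The order of the groups was the same. It fell, at -1.24 ± 0.22 (adjusted p 0.00199) in HZ and -1.49 ± 0.16 (adjusted p 6.69e-05) in LC, with an interaction of -0.27 ± 0.28 (adjusted p 0.606). H2A.J is LOC100625850 (chromosome 5, 57777008 to 57777673) and had 8.21, 5.78 and 8.97 CPM in Ha, 4.0, 2.92 and 2.57 in Hb, 10.6, 8.89 and 6.83 in La and 2.50, 4.42 and 3.80 in Lb. Within each age the breeds overlapped, and the ages did not. It fell, at -1.27 ± 0.30 (adjusted p 0.00695) in HZ and -1.28 ± 0.29 (adjusted p 0.00389) in LC, with an interaction of -0.02 ± 0.41 (adjusted p 0.996).

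H2AX, which is phosphorylated at DNA breaks and on the sex chromosomes in meiosis, is LOC100522201 (chromosome 9, 46308824 to 46310494) and had 48.7, 75.6 and 36.1 CPM in Ha, 86.3, 124 and 82.6 in Hb, 38.1, 34.8 and 33.3 in La and 113, 144 and 129 in Lb. Each 120-day-old library was above all 30-day-old ones. It was at 0.87 ± 0.29 (adjusted p 0.0281) in HZ and rose by 1.87 ± 0.13 (adjusted p 3.78e-06) in LC, and the interaction of 0.99 ± 0.34 (adjusted p 0.0991) was not called. The HZ change was called without Ha2 (log2 fold change 1.19, adjusted p 0.00683), and the interaction without Ha3 and Hb2 (log2 fold change 1.20 to 1.24, adjusted p 0.0384 to 0.041). H3.3, the H3 laid down outside replication, is LOC100521680 (chromosome 12, 5632326 to 5634977). It averaged 207 FPKM and had 383, 389 and 441 CPM in Ha, 741, 831 and 625 in Hb, 539, 473 and 505 in La and 584, 599 and 743 in Lb. Ha was the lowest group, La was next, and Hb and Lb overlapped above them. It was at 0.86 ± 0.15 (adjusted p 0.00159) in HZ and 0.36 ± 0.13 (adjusted p 0.0341) in LC, with no call. LOC100627410, H3.3-like (chromosome 7, 5546740 to 5553283), had 3.38, 4.30 and 3.18 CPM in Ha, 3.19, 2.14 and 2.11 in Hb, 3.39, 4.27 and 4.57 in La and 1.76, 2.50 and 2.05 in Lb. Lb was below La, and Ha overlapped Hb. With edgeR no comparison was called, at -0.54 ± 0.32 (adjusted p 0.164) in HZ and -0.94 ± 0.28 (adjusted p 0.0157) in LC. The HZ change was called with limma on log2(FPKM + 0.1) (log2 fold change -1.01, adjusted p 0.00488), and the LC change with library totals and limma on log2(FPKM + 0.1) and without La1 and Lb2 (log2 fold change -1.20 to -1.06, adjusted p 0.00106 to 0.0203). H2A.V, a close relative of H2A.Z, is LOC100512448 (chromosome 18, 50533382 to 50548341) and had 88.0, 92.8 and 93.3 CPM in Ha, 88.7, 77.2 and 78.1 in Hb, 109.8, 99.4 and 124 in La and 79.3, 97.2 and 82.1 in Lb. Lb was below La, and Ha overlapped Hb. It was at -0.17 ± 0.12 (adjusted p 0.228) in HZ and -0.35 ± 0.13 (adjusted p 0.0352) in LC. Of the 7 variants, edgeR called 0 in either direction in both comparisons of breeds and for the interaction (0 by DESeq2). At an unadjusted p under 0.05 there were 4 higher and 1 lower at 30 days, 0 and 0 at 120 days, and 1 above and 1 below 0 for the interaction. No variant was called higher from Ha to Hb (0 by DESeq2, 2 at an unadjusted p under 0.05). Their median was -0.54 in HZ and -0.94 in LC and negative on each scaling.

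Histones whose descriptions are worded in another way were measured beside these. LOC100516553, a testis-specific H1, had 0.192, 0.241 and 0.0388 CPM in Ha, 225, 194 and 275 in Hb, 0.127, 0.352 and 0.159 in La and 159, 150.4 and 107 in Lb. Each Hb library was above each Lb library, and the 30-day-old ones were near 0. It passed the filter through the 120-day-old groups only, so no p-value or fold is given. Counted with the H1 genes, it took 29.2% to 41.5% of summed FPKM in Hb and 13.1% to 20.5% in Lb, and H1t then took 26.4% to 35.5% and 30.3% to 47.5%. Together the pair took 8.37%, 8.70% and 4.93% in Ha, 67.0%, 59.6% and 67.8% in Hb, 2.22%, 2.46% and 2.14% in La and 50.8%, 53.7% and 60.6% in Lb. H2AFZ codes for H2A.Z, a variant at promoters, and had 90.5, 98.3 and 93.1 CPM in Ha, 439, 307 and 376 in Hb, 103, 79.9 and 79.2 in La and 340.5, 333 and 264 in Lb. The ages were apart and the breeds overlapped. It rose by 1.99 ± 0.16 (adjusted p 4.22e-05) in HZ and 1.85 ± 0.15 (adjusted p 9.90e-06) in LC. H2AFY, a macroH2A of silent chromatin, fell, at -1.40 ± 0.19 (adjusted p 0.000479) and -1.1 ± 0.14 (adjusted p 0.000138), and LOC100738475, macroH2A.2, fell, at -1.44 ± 0.26 (adjusted p 0.00191) and -1.16 ± 0.22 (adjusted p 0.00147). LOC102160938, late H2B.L4-like, rose by 3.70 ± 0.41 (adjusted p 0.000186) in HZ, and in LC it passed the filter only through Lb, where it had 4.33 CPM on average against 0.451 CPM in La. The replicative rows HIST1H3E, LOC100156741 (an H3) and HIST1H2BD had interactions of 1.1 ± 0.28 (adjusted p 0.0382), 1.56 ± 0.31 (adjusted p 0.0163) and 1.30 ± 0.34 (adjusted p 0.0406). H3F3A, a second gene for H3.3, averaged 222 FPKM and was at -0.44 ± 0.13 (adjusted p 0.0186) in HZ and -0.51 ± 0.12 (adjusted p 0.00541) in LC, with no call. With these rows counted, H2AFZ took 19.6% to 25.7% of H2A in Hb and 13.6% to 17.7% in Lb. Testis forms of H2A then took 0.202%, 0.352% and 0.173% in Ha, 25.3%, 16.9% and 21.5% in Hb, 0.102%, 0.0648% and 0.0882% in La and 12.8%, 12.6% and 15.3% in Lb of H2A. The order of the groups did not change. H2B type 1-A took 4.63%, 5.86% and 1.46% in Ha, 68.8%, 63.3% and 56.1% in Hb, 1.05%, 0.866% and 1.01% in La and 50.0%, 65.0% and 67.4% in Lb of H2B. H3.3 with H3F3A took 44.7%, 40.6% and 54.8% in Ha, 66.4%, 66.6% and 65.6% in Hb, 66.8%, 63.3% and 68.1% in La and 52.3%, 55.3% and 57.5% in Lb of H3. These shares are larger than those of H3.3 from the members in each library, and La was then above Lb and overlapped Hb. Ha was still below Hb and La but overlapped Lb.

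HINFP, the regulator of H4 transcription taken by the wording of its description, had 49.0, 50.0 and 48.3 CPM in Ha, 51.1, 51.0 and 58.6 in Hb, 43.4, 39.2 and 38.1 in La and 39.7, 49.9 and 41.5 in Lb. No comparison was called for it, with 0.13 ± 0.12 (adjusted p 0.372) in HZ, 0.14 ± 0.13 (adjusted p 0.37) in LC and -0.01 ± 0.17 (adjusted p 1) for the interaction.

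Genes of the pathways around histones were read from lists. Of all genes tested, 28.2% were called higher and 23.2% lower from Ha to Hb, and from La to Lb 27.5% and 20.1%, which stand beside each count of listed genes with age. The shares were 3.6% and 4.01% from Ha to La, 2.65% and 1.2% from Hb to Lb, and 3.51% above and 1.62% below 0 for the interaction. Of 21 genes of S phase and proliferation, 5 rose and 7 fell from Ha to Hb, 4 rose and 1 fell from La to Lb, and 3 were lower in La than in Ha. In Lb 1 was higher than in Hb, and 2 had an interaction above 0. Their summed levels were 429, 470.3 and 416 FPKM in Ha, 330.1, 425 and 351 in Hb, 374, 308 and 341 in La and 373, 346 and 375 in Lb. Of those called lower or higher from Ha to Hb, CCNA2 of this list and NPM2 of the chaperones passed the filter through 1 group only. Of 13 matched genes of histone mRNA transcription and processing, 2 rose in HZ and 3 in LC with age. Of 23 matched chaperones, 8 rose and 2 fell from Ha to Hb and 8 rose from La to Lb, 1 was lower in La than in Ha, 1 was higher in Lb than in Hb, and 1 had an interaction above 0. Of 15 matched genes of histone replacement in spermatids, 14 rose in HZ and 13 in LC, of which 5 and 4 passed the filter only through the 120-day-old group, and 1 had an interaction below 0. TNP1 and PRM3 were at the floor in both 30-day-old groups. MCM7, SLBP, RBBP4 and PRM1 were the most abundant of the lists, in this order. Their part in the levels of histone genes was not tested.

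From Ha to Hb, BRDT rose by 5.57 ± 0.17 (adjusted p 1.67e-06) and PRM1 by 11.06 ± 0.35 (adjusted p 1.68e-06) on the log2 scale. TSSK6 passed the filter only through the 120-day-old groups and averaged 0.377 CPM in Ha, 459 in Hb, 0.241 in La and 231 in Lb. MCM3 was at -1.56 ± 0.19 (adjusted p 0.0003), TK1 at -1.59 ± 0.21 (adjusted p 0.000461) and RBBP7 at -1.45 ± 0.21 (adjusted p 0.000643). From La to Lb, PHF7 rose by 8.12 ± 0.24 (adjusted p 7.1e-08) and BRDT by 5.37 ± 0.18 (adjusted p 8.73e-08), and MCM2 was at -1.01 ± 0.14 (adjusted p 0.000269). In La against Ha, MKI67 was at -1.14 ± 0.12 (adjusted p 0.00126), IPO4 at -1.31 ± 0.17 (adjusted p 0.00262) and CCNA2 at -1.18 ± 0.16 (adjusted p 0.00322). In Lb against Hb, HJURP was at 1.36 ± 0.18 (adjusted p 0.0119) and TK1 at 1.1 ± 0.22 (adjusted p 0.0344).

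Markers of testis cell types were read beside the histone genes, and their part in the results was not tested. The shares of all genes called, given with the lists above, apply here too. From Ha to Hb, 8 of 8 spermatocyte genes, 9 of 9 tested spermatid genes and 3 of 11 spermatogonial genes rose, and 6 spermatogonial genes fell. Of the risen genes 1, 6 and 1 passed the filter only through Hb, and 2 of the fallen spermatogonial genes only through Ha. From La to Lb the counts were 8 of 8, 9 of 9 and 4 of 11, with 5 spermatogonial genes lower, and 0, 5 and 1 of the risen and 1 of the lower passed through a single group. From Ha to Hb 4 of 8 Sertoli, 4 of 7 Leydig, 8 of 10 peritubular and stromal, 5 of 5 endothelial, 5 of 5 macrophage and 5 of 5 matched erythroid genes fell. Of these 1 endothelial, 2 macrophage and 3 erythroid genes passed the filter only through Ha. From La to Lb 4, 5, 5, 3 and 4 genes of these lists up to macrophages fell, and 0 of 3 tested erythroid genes did so by edgeR (0 by DESeq2, and 0 at an unadjusted p under 0.05), and 1 peritubular or stromal gene rose. In La 4 spermatocyte, 1 spermatogonial and 4 erythroid genes were lower than in Ha, and 3 Sertoli genes and 1 Leydig gene were higher. Of the 4 erythroid genes 3 passed the filter only through Ha, and the macrophage gene below only through Lb. In Lb 5 peritubular and stromal genes, 1 endothelial and 1 macrophage gene were higher than in Hb, and 1 spermatid gene was lower. Interactions above 0 were called for 2 spermatogonial, 5 peritubular and stromal, 1 endothelial, 1 macrophage and 1 erythroid gene, and interactions below 0 for 2 spermatid genes.

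Spermatogonial genes had 76.0, 73.3 and 59.5 FPKM in Ha, 177, 182 and 173 in Hb, 41.2, 40.6 and 43.9 in La and 155, 139.8 and 162 in Lb, a sum that DDX4 carries at 120 days. Without DDX4 it was 69.3, 65.5 and 52.9 FPKM in Ha, 31.6, 48.2 and 35.4 in Hb, 37.2, 36.6 and 38.7 in La and 45.5, 43.0 and 46.5 in Lb, so Hb was below Ha while Lb stayed above La. Spermatocyte genes had 10.5, 11.0 and 6.50 FPKM in Ha, 151, 157 and 134 in Hb, 5.40, 4.76 and 4.41 in La and 116, 110.3 and 124 in Lb. Spermatid genes had 5.72, 7.02 and 6.73 FPKM in Ha, 5280, 5793 and 7667 in Hb, 10.8, 9.39 and 4.53 in La and 3909, 3342 and 3575 in Lb.

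Sertoli genes had 782, 751 and 973 FPKM in Ha, 181, 288 and 216 in Hb, 1508, 1770 and 1632 in La and 311, 385 and 370.5 in Lb. Leydig genes had 5487, 5009 and 4883 FPKM in Ha, 2180, 189 and 128 in Hb, 7771, 5341 and 6281 in La and 2708, 4057 and 1712 in Lb. Peritubular and stromal genes had 976, 949.8 and 978 FPKM in Ha, 102, 101 and 66.5 in Hb, 1341, 1224 and 1512 in La and 530.1, 516 and 562 in Lb. Hb1 stood apart from Hb2 and Hb3 in Leydig genes, with INSL3 at 1549 FPKM against 83.7 and 27.5 FPKM. Endothelial genes had 93.7, 94.5 and 84.3 FPKM in Ha, 13.9, 26.7 and 15.7 in Hb, 98.0, 78.3 and 91.0 in La and 28.2, 45.7 and 28.6 in Lb. Macrophage genes had 40.3, 32.7 and 32.6 FPKM in Ha, 3.49, 4.56 and 2.24 in Hb, 38.3, 33.0 and 36.3 in La and 5.91, 9.64 and 9.91 in Lb. Erythroid genes had 165, 226 and 71.2 FPKM in Ha, 4.23, 17.1 and 26.5 in Hb, 107, 37.5 and 36.0 in La and 12.9, 17.8 and 44.3 in Lb. The most abundant genes of the lists were DDX4, PIWIL1, PRM1, INHA, INSL3, COL3A1, VWF, CSF1R and HBB, in the order of the sums. At the floor were NANOS2 in Hb and Lb, TNP1 and SPACA3 in Ha and La, ACRV1 in Ha and SLC4A1 in Hb.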

How the data were processed

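RNA of 12 boar testes (3 each of HZ and LC boars at 30 and 120 days) was depleted of ribosomal RNA and sequenced in strand-specific libraries. The authors trimmed reads with fastp 0.18.0, removed ribosomal reads with Bowtie2 2.2.8, aligned with HISAT2 2.1.0 to Sus scrofa 11.1 and assembled with StringTie 1.3.4. The deposited coding-gene table holds an estimated count for each gene and library, and the tool behind these counts is not named. The authors' second unit, calculated with StringTie, is FPKM, which scales fragments to gene length and library size. The lncRNA table and the assembly were not used here.

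Estimated counts were rounded to whole numbers before tests and before CPM. Genes with low counts were removed with filterByExpr (minimum count 10) in each comparison of 6 libraries, TMM factors were computed and edgeR 4.0.16 quasi-likelihood tests were run in R 4.3.3, with Benjamini-Hochberg adjustment over all genes tested. Calls needed an adjusted p below 0.05 and a log2 fold change above 1 in size. A gene passed the filter through 1 group only where fewer than 3 libraries of the other group reached the level the filter asks for. The interaction used all 12 libraries. Tables and plots were made in Python 3.11.15 with numpy 2.4.6, pandas 2.3.3 and matplotlib 3.10.9. Total counts per library ran from 17165519 to 23758931, and floors cover counting error only.

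Alternatives were DESeq2 1.42.0, limma 3.58.1 on log2(FPKM + 1) and log2(FPKM + 0.1), library totals without TMM, no filter on low counts, a filter of 10 counts in every library of at least 1 group, no threshold on fold, a replicate block, all 12 libraries in 1 fit, and leaving out each library. Genes given singly were the testis forms and replacement variants, the 10 other genes highest by mean FPKM, in each comparison and direction the 3 called with the smallest adjusted p, and all with a called interaction. Listed genes were named where they were among the 3 smallest adjusted p per direction or the most abundant of a cell-type list. Members and lists were chosen with earlier results of these data known. The lists are S phase and proliferation, histone mRNA transcription and processing, histone chaperones, histone replacement in spermatids, and markers of spermatogonia, spermatocytes, spermatids, Sertoli cells, Leydig cells, peritubular and stromal cells, endothelial cells, macrophages and erythroid cells.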

Additional observations from a re-analysis of the deposited data

Results flagged for a closer look

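The change with age differed between LC and HZ boars, by the edgeR interaction test at an adjusted p under 0.05, for 28 histone genes and for 4 genes of the related lists, and this difference is what marks them. Each value is the log2 change from La to Lb minus that from Ha to Hb. Among testis forms the values were those of LOC110261479 (2.73, adjusted p 0.00363), LOC100153329 (3.10, adjusted p 0.0329), LOC100152135 (2.93, adjusted p 0.0232) and LOC100152878 (3.07, adjusted p 0.0406). For replicative H1 they were those of LOC110261478 (2.21, adjusted p 0.00477), LOC110261661 (1.25, adjusted p 0.00996) and LOC574051 (0.86, adjusted p 0.0449). For replicative H2A they were those of LOC100154071 (1.04, adjusted p 0.0406), LOC100154508 (1.62, adjusted p 0.00247), LOC100155734 (1.55, adjusted p 0.0139), LOC100157763 (1.51, adjusted p 0.0218), LOC100158121 (1.46, adjusted p 0.0305) and LOC100622387 (1.15, adjusted p 0.0126). For further H2A they were those of LOC102159655 (1.11, adjusted p 0.00834), LOC110261482 (1.59, adjusted p 0.00159), LOC110261483 (1.24, adjusted p 0.00834), LOC110261665 (1.14, adjusted p 0.0153) and LOC110261668 (2.49, adjusted p 0.00174). For replicative H2B they were those of LOC100621915 (1.63, adjusted p 0.0115), LOC110255273 (0.89, adjusted p 0.0112), LOC110261486 (1.08, adjusted p 0.0188), LOC110261669 (1.22, adjusted p 0.00928), LOC110261671 (1.85, adjusted p 0.0118) and LOC110261672 (2.82, adjusted p 0.0315). For replicative H3 they were those of LOC102161782 (1.33, adjusted p 0.00753) and LOC110261664 (1.83, adjusted p 0.00355). For replicative H4 they were those of LOC100621389 (1.31, adjusted p 0.00928) and LOC110261487 (1.08, adjusted p 0.0406). LOC110255273 and LOC574051 did not pass the threshold on fold. In the related lists they were those of CCNA2 (4.38, adjusted p 0.0416), HJURP (1.73, adjusted p 0.00414), PRM1 (-1.83, adjusted p 0.0322) and TK1 (1.29, adjusted p 0.0167). CCNA2 held 0, 2.14 and 0 CPM in Hb, so its value rests on a group near the floor. It was 3.84 without Hb1 and 11.47 without Hb2, and it was not called without 10 of the 12 libraries in turn. PRM1, at 0.844 to 2.80 CPM at 30 days, was not called without 9 of the 12. No cause of these differences was tested.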

How the results depend on the processing

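Counts over all genes also moved between settings, as given with several of the results above. From Ha to Hb the 19 histone genes lower became 29 on library totals without TMM, 33 on log2(FPKM + 1), 39 on log2(FPKM + 0.1) and 34 with no threshold on fold. From La to Lb the 5 lower became 9 on library totals, 9 on log2(FPKM + 0.1), 13 with no threshold on fold and 4 to 8 without 1 library. From Ha to La the 0 higher (edgeR, with 4 at an unadjusted p under 0.05 and 0 by DESeq2) became 2 and the 14 lower 24 with no threshold on fold, and the 14 lower ran from 9 to 15 without 1 library. From Hb to Lb the 5 higher became 1 with a replicate block, 10 on log2(FPKM + 1), 11 on log2(FPKM + 0.1), 15 with no threshold on fold and 0 to 8 without 1 library. The 1 lower became 3 by DESeq2, 3 in 1 fit of all 12 libraries and 1 to 2 without 1 library. The 26 interactions above 0 ran from 17 to 29 without 1 library, and limma on both FPKM scales gave 30 above and 1 below 0. The 1 below was that of a gene at the floor in both 30-day-old groups. With the replicate block 10 genes were higher and 20 lower in Hb than in Ha, 21 and 5 in Lb than in La, 0 and 13 in La than in Ha, 1 and 1 in Lb than in Hb, and 23 interactions were called. Pairing by replicate number gave correlations of -0.022 to 0.053 over 17332 genes. For genes given singly, 63 called values in comparisons of 2 groups had 944 alternatives, of which 880 kept the call, 64 lost it and 0 reversed. Among these values, 5 testis forms and 1 replicative gene from Ha to Hb passed the filter through 1 group only. So did 7 and 1 from La to Lb and 1 testis form from Ha to La. The 26 called interactions had 520 alternatives, of which 456 kept the call, 64 lost it and 0 reversed. Fits with no threshold on fold cannot lose a call and count as kept in both tallies, so the tallies do not measure stability. Why calls were lost was not tested.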
